A study of Mus musculus with 8 samples.

Results

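The ERBB family and its EGF-like ligands were examined as 10 of the 55933 genes in the deposited expression table. Members were taken by gene name, and comprise the 4 receptors Egfr, Erbb2, Erbb3 and Erbb4 and the 6 ligands Egf, Areg, Btc, Hbegf, Tgfa and Nrg1. RNA-seq was performed on mammary epithelium of C57BL/6 females at pregnancy day 14.5, with 4 libraries labelled WT and 4 labelled cKO, 1 per mouse. In the cKO mice a keratin 14 promoter drives an activator that turns on Cre when doxycycline is given in the drinking water, which deletes floxed Bmpr1a, the gene of a BMP receptor, and the controls were littermates whose exact alleles and doxycycline treatment are not given for each library. The K14 promoter is active in basal and myoepithelial cells, whereas the preparation was the whole digested epithelium and was not sorted, so every library also holds luminal cells. Expression is given as FPKM, the number of fragments on a gene after correction for its length and for the size of the library. Levels are therefore compared between genes on this scale. Library size in these values was proportional to median-of-ratios size factors and not to total reads. Each library held between 16123108 and 19896988 reads on genes.

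ERBB proteins are receptor tyrosine kinases that work in pairs. Egfr binds EGF, amphiregulin (Areg), betacellulin (Btc), HB-EGF (Hbegf) and TGF-alpha (Tgfa), Erbb3 and Erbb4 bind neuregulins (Nrg1), Erbb4 also binds betacellulin and HB-EGF, and Erbb2 has no known ligand and serves as a shared partner. Erbb3 has little kinase activity of its own and recruits PI3-kinase once its partner has phosphorylated it. The ligands are made as membrane-anchored precursors that metalloproteases release. In the mammary gland amphiregulin is known for duct growth under oestrogen, and neuregulin and Erbb4 for the growth and differentiation of alveoli in pregnancy.

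The stretch upstream of the start is shown for Erbb2 and Btc, the tested members whose 4 cKO libraries all lay below the 4 WT libraries in FPKM, and for Areg, which lies beside Btc in a cluster of ligand genes. Each run covers bases 250 to 21 before a RefSeq start site on the gene's strand, 5′ to 3′, from build GRCm38.p6, at chr11:98412234-98412463 (plus strand) for Erbb2, chr5:91403015-91403244 (minus strand) for Btc and chr5:91139349-91139578 (plus strand) for Areg. Capitals mark matches to any of 5 motifs, which were chosen with the expression values known.
Erbb2: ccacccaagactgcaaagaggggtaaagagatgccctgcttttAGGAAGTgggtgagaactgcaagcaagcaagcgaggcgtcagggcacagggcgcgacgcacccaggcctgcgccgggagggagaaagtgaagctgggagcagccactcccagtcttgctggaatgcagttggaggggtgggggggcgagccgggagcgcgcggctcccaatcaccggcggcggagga
Btc: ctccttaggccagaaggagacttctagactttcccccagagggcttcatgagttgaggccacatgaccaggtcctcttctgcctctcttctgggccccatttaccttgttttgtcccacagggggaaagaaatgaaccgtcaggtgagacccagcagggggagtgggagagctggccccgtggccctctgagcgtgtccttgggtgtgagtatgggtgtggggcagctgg
Areg: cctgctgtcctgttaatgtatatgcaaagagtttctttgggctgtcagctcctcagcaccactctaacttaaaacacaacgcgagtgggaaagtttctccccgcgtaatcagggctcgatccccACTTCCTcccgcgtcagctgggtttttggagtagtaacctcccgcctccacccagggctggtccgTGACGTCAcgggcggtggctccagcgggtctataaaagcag
Both strands were searched for the SMAD motifs GGCGCC and CAGAC, the AP-1 motif TGANTCA, the cAMP response element TGACGTCA and the PEA3 (ETS) motif AGGAAGT. The Areg run held the cAMP response element beginning 61 bases before the start and the reverse complement of the PEA3 motif beginning 126 bases before it, and the Erbb2 run held the PEA3 motif beginning 207 bases before its start. The Btc run held none of the 5. Among 32531 distinct windows of the same length, GGCGCC was found in 8.70%, CAGAC in 39.6%, TGANTCA in 6.32%, TGACGTCA in 1.29% and AGGAAGT in 6.94%. A match is a run of letters and was not tested as a binding site. Of the other members, Egfr, Erbb4, Egf and Tgfa had a window, and Erbb3, Hbegf and Nrg1 had none. The reverse complement of CAGAC began 90 bases before the start in the Tgfa window and 77 bases before it in 1 of the 2 Egf windows. Both Egf windows overlap an annotated exon.

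Bmpr1a itself (chr14:34410734-34503341, minus strand) was not lower in the libraries labelled cKO. Its FPKM was 10.1 ± 1.28 in WT and 11.2 ± 1.01 in cKO (mean ± SD, n = 4 each), the groups overlapped, and limma gave an adjusted p of 0.560. Summed gene values do not resolve a deleted exon or a deletion in one cell layer, so the directions below rest on the labels. Luminal and myoepithelial markers were abundant, with Krt8 at 1763 ± 198, Epcam at 1074 ± 56.3, Krt14 at 753 ± 93.7 and Acta2 at 825 ± 164 FPKM in WT (SD, n = 4). Markers of other cells were present too, among them Col3a1 of fibroblasts at 238 ± 96.05 and Fabp4 of adipocytes at 96.7 ± 17.8 FPKM in WT.

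**Figure D1:**
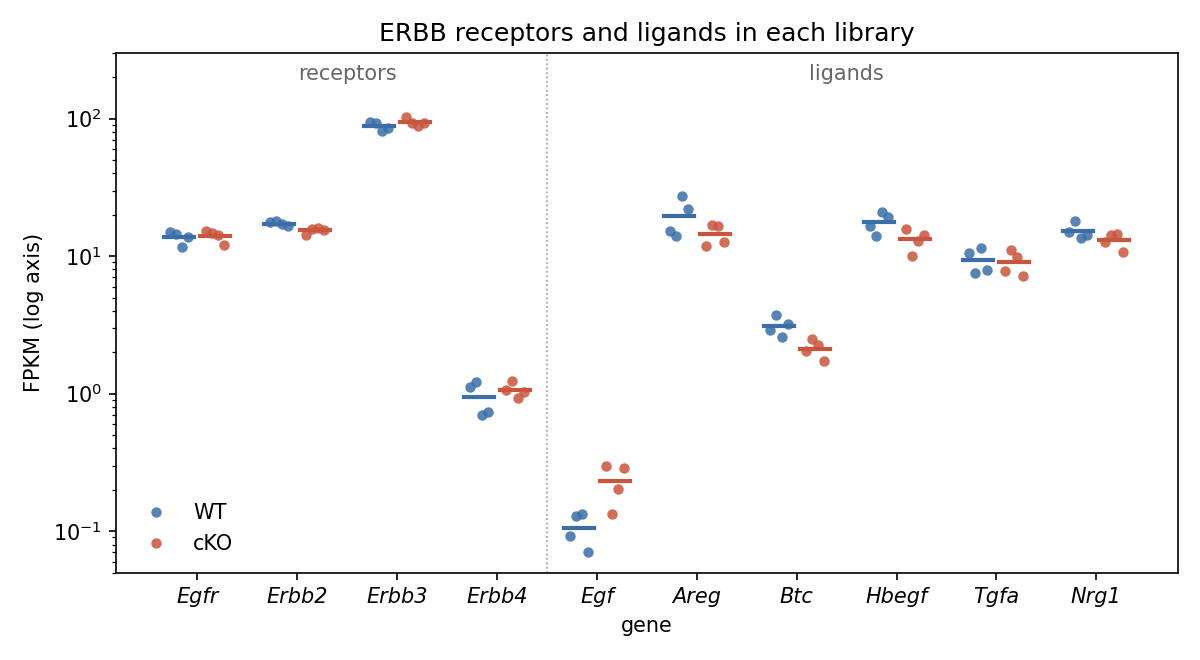
FPKM on a log axis for the 4 receptors and 6 ligands in each of the 4 WT (blue) and 4 cKO (red) libraries, with points for libraries and bars for group means. Erbb3 stands above every other member, and Egf is lowest.

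Erbb3 was the most abundant member in both groups. Its mean was 4.51 times that of the next member in WT (Areg) and 6.12 times that of the next in cKO (Erbb2), with no overlap of the library ranges, and 96.7% of the 15143 genes tested had a lower mean. Below it in WT came Areg, Hbegf, Erbb2, Nrg1 and Egfr, between 13.8 and 19.6 FPKM, and the library ranges of neighbours in this order overlapped. Tgfa, Btc, Erbb4 and Egf followed in that order, each with a range apart from the one above. In cKO the middle order was Erbb2, Areg, Egfr, Hbegf, Nrg1 and Tgfa, again with overlapping neighbours, and Btc, Erbb4 and Egf were again the 3 lowest. The plot of member levels shows this spread between Egf at the bottom and Erbb3 at the top.

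No member differed between cKO and WT at an adjusted p under 0.05. Of the 10 members 9 passed the filter on low values (mean FPKM of at least 0.5), and 0 of these 9 were called by limma, beside 0.892% of all tested genes, and 0 by limma-voom on the recovered reads. At an unadjusted p under 0.05, the threshold in the study's methods, 3 of 9 members passed (Btc, Erbb2 and Hbegf), beside 16.4% of all genes. All 3 had a lower mean in cKO, beside 7.53% of genes that were lower at this threshold, and 0 members were higher, beside 8.85%. The groups did not overlap for 2 of the 9 (Erbb2 and Btc), beside 10.7% of all genes tested, and this count became 0 when libraries were scaled to the same FPKM sum (TPM). The median log2 fold change was 0.06 for the 4 receptors and -0.38 for the 5 tested ligands, beside 0.00072 for all genes tested. In bulk RNA, fewer cells of a type and less RNA per cell cannot be told apart.

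**Figure D2:**
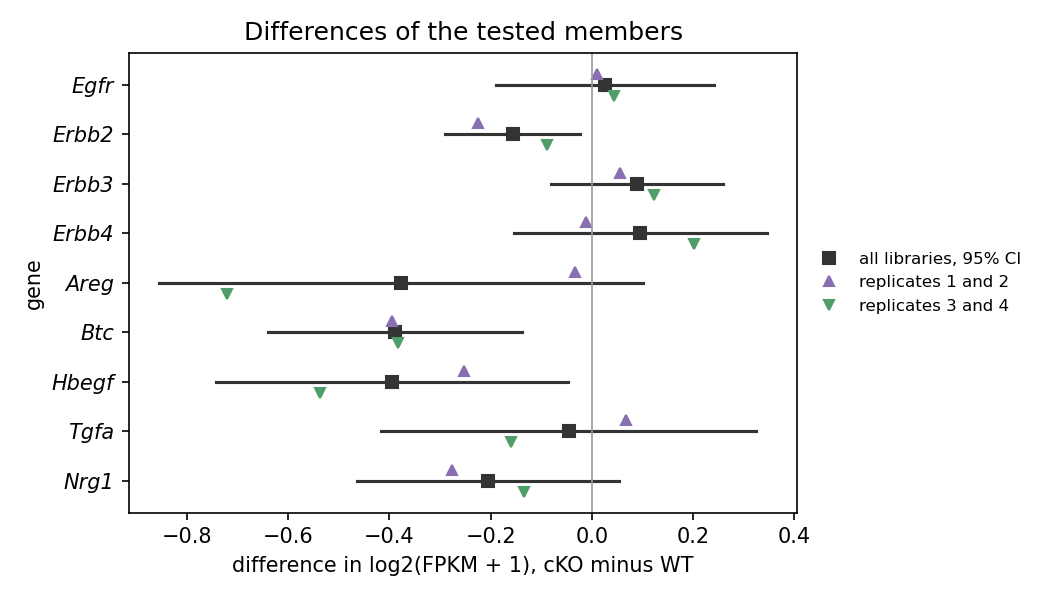
Difference in log2(FPKM + 1), cKO minus WT, for the 9 tested members. Squares with lines are the limma estimate with its 95% confidence interval over 4 against 4 libraries, and triangles are the same difference within replicates 1 and 2 or within replicates 3 and 4. All 5 ligand estimates lie below 0, and the Btc triangles (-0.40 and -0.38) lie close together while those of Areg (-0.03 and -0.72) do not.

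Among the receptors, Erbb2 (chr11:98412470-98437716, plus strand) had the clearest separation of groups. Its FPKM was 17.6, 17.9, 17.0 and 16.5 in WT and 14.2, 15.9, 16.0 and 15.4 in cKO. Every cKO library was below every WT library, by a small margin. The mean was 10.9% lower in cKO (17.3 ± 0.606 against 15.4 ± 0.798, SD, n = 4 each), and limma put the log2 fold change at -0.16 (SE 0.06, 95% confidence interval -0.29 to -0.02, unadjusted p = 0.0268, adjusted p = 0.236). Without WT replicate 1, WT replicate 2 or cKO replicate 1 the unadjusted limma p was 0.0633, 0.0696 and 0.0737. On the TPM scale the WT range of Erbb2 was 50.7 to 61.3 and the cKO range 44.4 to 51.3, which overlap. Mien1 lies on the opposite strand with overlapping exons, and had at most 278 reads in a library where Erbb2 had at least 1323.

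Erbb3 (chr10:128567523-128589652, minus strand), the neuregulin-binding receptor that couples to PI3-kinase, measured 95.2, 92.3, 81.4 and 85.1 FPKM in WT and 102, 92.9, 88.1 and 93.5 in cKO. The groups overlapped. Its mean was 6.41% higher in cKO, with a log2 fold change of 0.09 (SE 0.08, 95% confidence interval -0.08 to 0.26, limma adjusted p = 0.609). The value was 0.049 without cKO replicate 1, 0.0505 without WT replicate 3 and 0.028 on the TPM scale.

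Egfr (chr11:16752203-16918158, plus strand), the receptor of EGF and amphiregulin, measured 15.1, 14.6, 11.8 and 13.7 FPKM in WT and 15.1, 14.7, 14.2 and 12.1 in cKO, and the groups overlapped almost fully. The log2 fold change was 0.03 (SE 0.10, 95% confidence interval -0.19 to 0.24, limma adjusted p = 0.920), and its sign turned to -0.03 on the TPM scale. Erbb4 (chr1:68032186-69108059, minus strand), which binds neuregulins and activates STAT5A in alveolar cells, was low, at 1.13, 1.21, 0.701 and 0.738 FPKM in WT and 1.07, 1.24, 0.933 and 1.02 in cKO. WT replicates 3 and 4 were its lowest libraries. The log2 fold change was 0.10 (SE 0.11, 95% confidence interval -0.15 to 0.35, limma adjusted p = 0.717), and between 0.035 (without WT replicate 3) and 0.21 (limma-voom) over the alternatives run. For Egfr, Erbb3 and Erbb4 these intervals leave differences of either sign possible.

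Within the receptor pool, the share of Erbb3 was higher and that of Erbb2 lower in every cKO library. Shares were taken of the summed FPKM of the 4 receptors, so the scaling of libraries cancels, and they were not tested. As parts of one sum, the 4 shares are not independent. The mean share differed by 2.05 percentage points for Erbb3 and -1.975 for Erbb2 (cKO minus WT), beside -0.16 for Egfr and 0.08 for Erbb4. Erbb3 made up 73.8%, 73.3%, 73.4% and 73.3% of the sum in WT and 77.1%, 74.5%, 73.9% and 76.6% in cKO. Erbb2 made up 13.7%, 14.2%, 15.4% and 14.2% in WT and 10.7%, 12.7%, 13.4% and 12.7% in cKO. The gap between the groups was narrow for Erbb3, from 73.8% in the highest WT library to 73.9% in the lowest cKO library. Egfr was 11.4% ± 0.562 in WT and 11.3% ± 0.923 in cKO, and Erbb4 0.775% ± 0.167 and 0.855% ± 0.0943 (SD, n = 4), with overlapping groups for both. The receptor sum overlapped too, at 121 ± 8.45 FPKM in WT and 125 ± 5.84 in cKO.

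**Figure D3:**
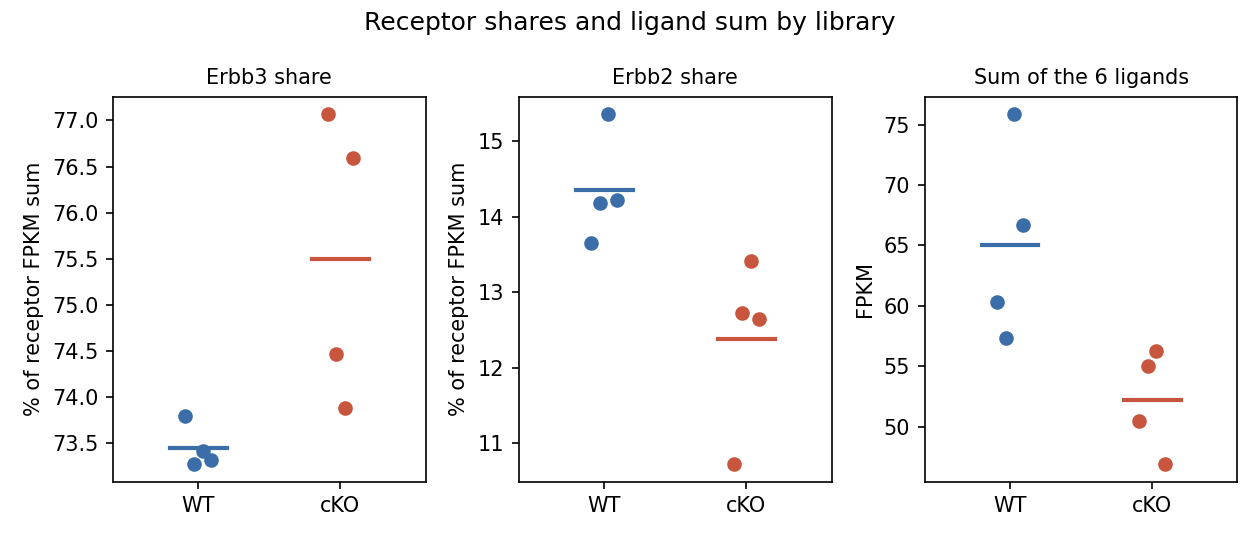
Share of Erbb3 and of Erbb2 in the summed receptor FPKM (%, axes not starting at 0) and the summed FPKM of the 6 ligands, for each WT (blue) and cKO (red) library with bars for group means. In each of the 3 panels the 4 cKO libraries lie on one side of the 4 WT libraries. The Erbb3 and Erbb2 shares are parts of one sum and so are not independent.

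Among the ligands, Btc (chr5:91357261-91402994, minus strand), the betacellulin gene, had the smallest p. Its FPKM was 2.92, 3.70, 2.56 and 3.21 in WT and 2.04, 2.51, 2.24 and 1.72 in cKO. All 4 cKO libraries were below all 4 WT libraries, with 2.51 as the highest cKO value and 2.56 as the lowest WT value. The mean was 31.4% lower in cKO (3.10 ± 0.482 against 2.13 ± 0.335, SD, n = 4 each), and limma put the log2 fold change at -0.39 (SE 0.11, 95% confidence interval -0.64 to -0.14, unadjusted p = 0.00659, adjusted p = 0.136). The unadjusted p stayed under 0.05 in all 15 alternative settings, with adjusted p from 0.0880 to 0.278. The groups overlapped on the TPM scale, where WT ran from 7.88 to 12.7 and cKO from 4.93 to 8.12. Counting was thin for this gene, with 144 to 290 reads per library.

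Hbegf (chr18:36504927-36515805, minus strand), the heparin-binding ligand, measured 16.7, 14.0, 21.01 and 19.2 FPKM in WT and 15.8, 10.1, 12.8 and 14.3 in cKO. The groups overlapped between WT replicate 2 and cKO replicates 1 and 4. The mean was 25.2% lower in cKO, with a log2 fold change of -0.39 (SE 0.15, 95% confidence interval -0.74 to -0.05, limma unadjusted p = 0.0304, adjusted p = 0.248). The unadjusted limma p passed 0.05 without WT replicate 3 (0.0823), WT replicate 4 (0.0741), cKO replicate 2 (0.0801) or cKO replicate 3 (0.0597).

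Areg (chr5:91139599-91148432, plus strand), the amphiregulin gene, measured 15.2, 13.9, 27.3 and 22.1 FPKM in WT and 11.8, 17.0, 16.6 and 12.6 in cKO. WT replicates 3 and 4 stood above all other libraries, and WT replicates 1 and 2 lay inside the cKO range. The log2 fold change was -0.38 (SE 0.21, 95% confidence interval -0.86 to 0.10, limma adjusted p = 0.419). Within replicates 1 and 2 the difference was -0.03 and within replicates 3 and 4 it was -0.72, so the size of the mean difference rests on the latter set. The log2 fold change was -0.21 without WT replicate 3 and -0.52 without WT replicate 2, and the unadjusted limma p was under 0.05 without WT replicate 2 (0.0348) and on the TPM scale (0.0461).

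Nrg1 (chr8:31814551-32884254, minus strand), the neuregulin gene, measured 14.95, 18.1, 13.5 and 14.3 FPKM in WT and 12.7, 14.2, 14.6 and 10.8 in cKO, with overlapping groups. Its log2 fold change was -0.21 (SE 0.11, 95% confidence interval -0.46 to 0.05, limma adjusted p = 0.418), and -0.12 without WT replicate 2 or without cKO replicate 4. Nrg1 is read from several promoters, and the table sums all its isoforms. Tgfa (chr6:86195223-86275719, plus strand), which encodes another Egfr ligand, measured 10.5, 7.49, 11.5 and 7.87 FPKM in WT and 7.81, 11.2, 9.84 and 7.16 in cKO. These groups overlapped over most of their range, with a log2 fold change of -0.05 (SE 0.16, 95% confidence interval -0.42 to 0.32, limma adjusted p = 0.920).

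Egf (chr3:129677565-129755316, minus strand) was the exception in direction among the 6 ligands, with a higher mean in cKO, and the lowest member. Its FPKM was 0.0921, 0.128, 0.132 and 0.0709 in WT and 0.299, 0.134, 0.201 and 0.287 in cKO, so that cKO replicate 2 barely cleared the highest WT library. It lay under the filter on low values and was therefore compared on log2(FPKM + 1) with an exact permutation test (two-sided), which gave a difference of 0.15 and p = 0.0286, the smallest p that 4 against 4 libraries allow. With a pseudocount of 0.1 in place of 1 the difference was 0.66, since the size on this scale depends on the pseudocount for so low a gene. The ratio of means was 2.18, from 83 reads in all of WT and 186 in all of cKO. On the TPM scale the groups overlapped (exact permutation p = 0.0571), and without the filter limma gave an adjusted p of 0.318. The overlapping genes on the opposite strand, Gm42697 and 6330410L21Rik, had at most 1 read in a library.

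The summed FPKM of the 6 ligands was lower in every cKO library, at 50.5, 55.0, 56.3 and 46.9, than in any WT library, at 60.3, 57.3, 75.9 and 66.7. The groups also stayed apart on the TPM scale, with 197 to 233 in WT and 135 to 178 in cKO. The sum was not tested. It leaves out epiregulin (Ereg), whose WT mean of 21.7 FPKM (16.15 in cKO) was above that of each of the 6. The sum is carried by Areg, Hbegf and Nrg1, whose groups each overlapped in FPKM. These made up 29.6%, 27.1% and 23.9% of it in WT and 27.7%, 25.7% and 24.95% in cKO. Of the single ligands, the share of Egf alone had groups apart (0.164% ± 0.0486 in WT and 0.451% ± 0.1798 in cKO, SD, n = 4).

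Areg and Btc lie in a cluster of EGF-family ligand genes on chromosome 5, with epigen (Epgn) and epiregulin (Ereg) upstream, all within 375.5 kb (chr5:91027464-91402994). The log2 fold changes of the 4 ligand genes were -0.37 for Epgn, -0.42 for Ereg, -0.38 for Areg and -0.39 for Btc, and no test compared them with each other. The Areg value differed between the replicate sets as given above, and with a pseudocount of 0.1 the values were -0.40 for Areg and -0.52 for Btc. Epgn measured 4.02, 3.74, 4.82 and 4.98 FPKM in WT and 2.92, 2.75, 3.73 and 3.22 in cKO, and every cKO library lay below every WT library (limma unadjusted p = 0.00612, adjusted p = 0.133). Ereg measured 18.0, 19.0, 24.8 and 24.98 FPKM in WT and 16.6, 11.0, 20.7 and 16.3 in cKO, with overlap (limma unadjusted p = 0.0461, adjusted p = 0.295). The noncoding gene Gm19610 was the only other gene tested of the 7 that the table places in this span, with a log2 fold change of -0.26 (limma adjusted p = 0.753), and it overlaps the start of Ereg on the opposite strand. None of the 5 was called at an adjusted p under 0.05, and whether the neighbours share a cause was not tested.

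**Figure D4:**
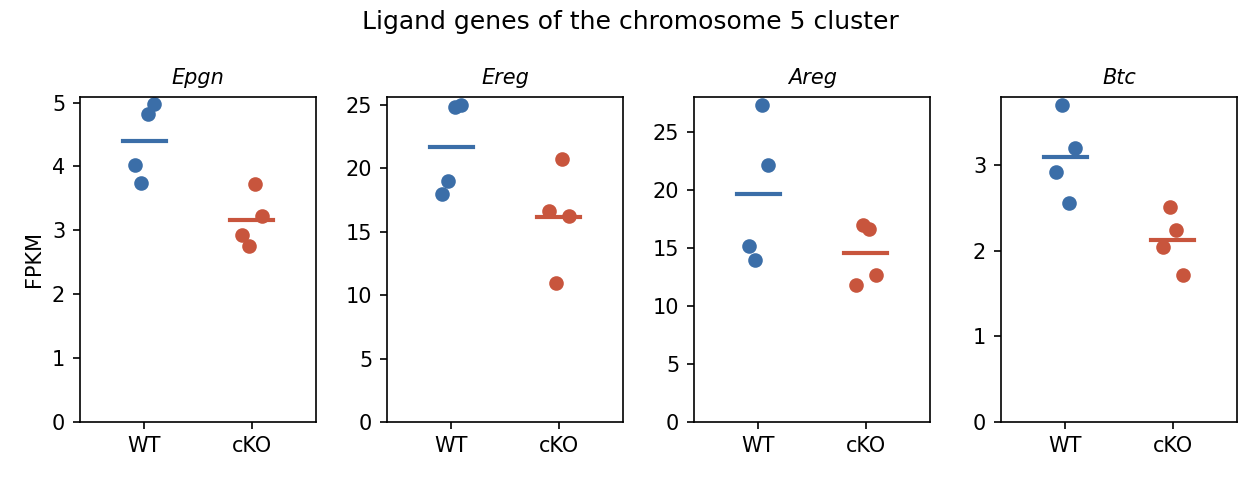
FPKM of the 4 ligand genes of the chromosome 5 cluster in each WT (blue) and cKO (red) library, in map order from Epgn to Btc, with bars for group means and axes from 0. Group means are lower in cKO in all 4 panels, and the groups do not overlap in FPKM for Epgn and Btc, each by a narrow margin.

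The rest of the pathway was read from lists by role, 74 genes of which 72 were tested. None was called at an adjusted p under 0.05 by limma. At an unadjusted p under 0.05, 7 of 72 were higher, beside 8.85% of all genes tested, and 9 were lower in cKO, beside 7.53%. The same shares of all genes stand beside each list's counts below, and the median log2 fold change was 0.01. Without WT replicate 4 the 16 genes became 9. Of the 5 other ligands, Nrg3 had 0 reads in all libraries, Nrg4 lay under the filter, Nrg2 had a log2 fold change of 0.0042 and the remaining pair were Epgn and Ereg. Of 7 genes for sheddases, which release the ligands, and for the inactive rhomboids that regulate them, Adam9 was at 21.1 ± 1.71 FPKM in WT and 23.9 ± 0.272 in cKO (log2 fold change 0.17, limma unadjusted p = 0.0253). The inactive rhomboid gene Rhbdf1, the most abundant of that list, was at 30.9 ± 1.51 and 29.4 ± 2.56 (adjusted p = 0.701).

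Of 17 inhibitor genes only Spry2, an inhibitor of receptor tyrosine kinase signalling to ERK, passed the unadjusted threshold. It measured 40.7, 40.2, 43.7 and 42.3 FPKM in WT and 32.3, 27.8, 35.8 and 30.5 in cKO, with no overlap. Its log2 fold change was -0.40 (SE 0.08, 95% confidence interval -0.58 to -0.21, limma unadjusted p = 0.000833, adjusted p = 0.0624), the smallest p of the named pathway genes. Errfi1, which binds and blocks the Egfr kinase, was abundant at 206 ± 19.4 FPKM in WT and 216 ± 24.1 in cKO (adjusted p = 0.802).

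Of 12 adaptor and partner genes, 3 were higher and 2 lower at the unadjusted threshold. The docking protein gene Gab1 was at 21.6, 18.9, 22.7 and 22.2 FPKM in WT and 30.7, 27.8, 23.3 and 34.7 in cKO, without overlap (log2 fold change 0.42, limma unadjusted p = 0.00571, adjusted p = 0.131). The membrane mucins Muc1 and Muc4, of which Muc4 binds Erbb2, had log2 fold changes of 0.39 and 0.24 (limma adjusted p = 0.132 and 0.177). Plcg1, a phospholipase recruited to activated receptors, was at 5.04 ± 0.291 FPKM in WT and 4.31 ± 0.396 in cKO (limma adjusted p = 0.251).

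In the RAS-ERK list of 11 genes the kinase gene Mapk3, the most abundant, was at 50.7 ± 6.86 FPKM in WT and 53.1 ± 5.69 in cKO (limma adjusted p = 0.800). In the PI3K-AKT list of 11, the kinase gene Mtor was at 5.60 ± 0.556 FPKM in WT and 4.72 ± 0.316 in cKO (log2 fold change -0.20, limma adjusted p = 0.245). Of 11 genes known to respond to ERK, 3 were lower and 1 higher at the unadjusted threshold, with a list median of -0.18. The lower genes were Dusp6 (59.4 ± 10.1 FPKM in WT, 46.6 ± 3.45 in cKO, log2 fold change -0.33), Etv4 (-0.33) and Etv5 (-0.20), and the higher one was Dusp4 (0.38), with limma adjusted p from 0.174 to 0.251. Groups of these 4 genes overlapped. Dusp4 was highest in cKO replicates 1 and 4 (24.9 and 30.95 FPKM). In these libraries Fos (120 and 127 FPKM) and Egr1 (73.1 and 75.9) were also highest. Fos and Egr1 stand in both the ERK list and the list of genes that respond to tissue digestion. Of the latter list, Fosb and Atf3 were also highest there. Jun, Junb, Dusp1, Ier2, Ier3, Zfp36 and Nr4a1 of that list were higher in WT replicate 3 than in cKO replicate 1. The part of digestion in the Dusp4 value was not tested.

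**Figure D5:**
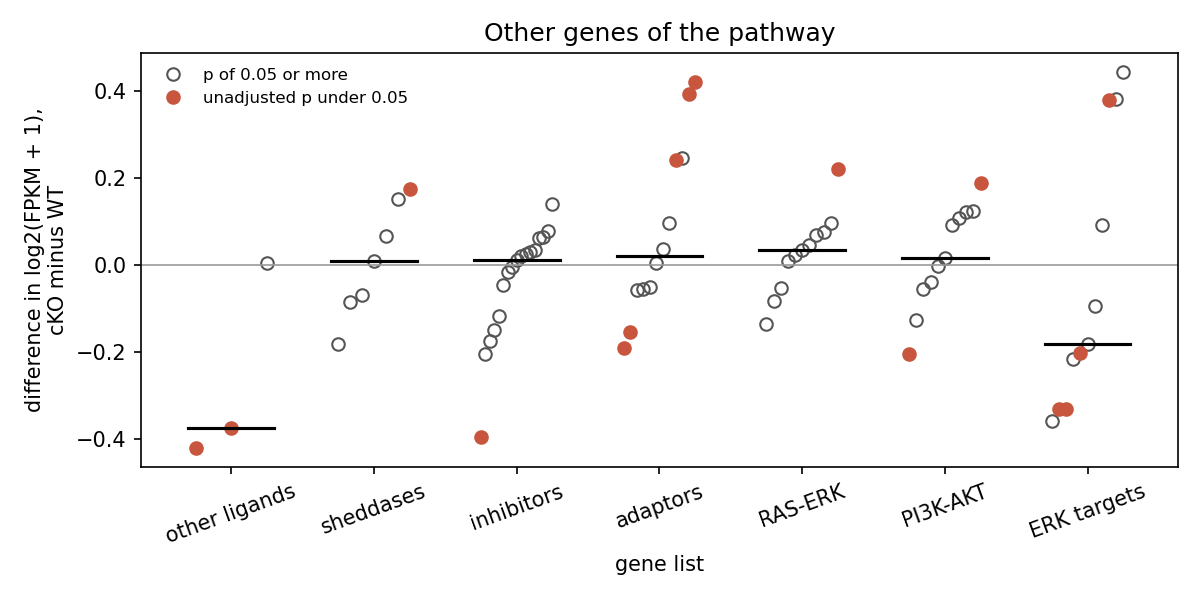
Difference in log2(FPKM + 1), cKO minus WT, of each tested gene in the 7 pathway lists, with a bar at each list's median. Filled points have an unadjusted limma p under 0.05, 7 above 0 and 9 below, and none has an adjusted p under 0.05.

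Cell type markers moved with the same contrast, and their part in the members' values was not tested. Alveolar genes were higher in cKO, with 4 of 8 called (Csn1s2a, Csn2, Wap and Glycam1) and a summed level of 4296 to 6511 FPKM in WT and 10420 to 18920 in cKO. Of 11 myoepithelial genes 0 were called by limma, 3 (Krt14, Trp63 and Cdh3) were lower and 1 (Oxtr) higher at the unadjusted threshold, and the sums overlapped (2006 to 2725 in WT, 1827 to 2525 in cKO). Of 8 tested hormone-sensing luminal genes 1 fell, Cited1, from 10.1 ± 1.63 to 4.54 ± 0.987 FPKM (limma adjusted p = 0.0268), and the sums overlapped (108 to 131 and 87.8 to 116). None of the 7 luminal genes passed the unadjusted threshold, with sums of 5172 to 6509 in WT and 5032 to 6525 in cKO. All 7 fibroblast genes had lower means in cKO, none at the unadjusted threshold, with sums of 446 to 927 and 304 to 722. Of 7 tested immune genes 3 were lower at that threshold (sums 29.1 to 56.2 and 20.6 to 32.5), as were 2 of 5 endothelial genes (66.8 to 77.0 and 47.9 to 74.7). Of 4 tested adipocyte genes 1 (Cidec) was called higher and 3 were higher at the unadjusted threshold (sums 78.7 to 122 and 102 to 137). Of 13 genes that respond to tissue digestion 1 (Hspa1a) was higher at that threshold and 0 were called (1705 to 2136 and 1599 to 2931). No marker of these lists was at 0 in all libraries.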

How the data were processed

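RNA of 8 mammary epithelial preparations was sequenced, and the authors mapped reads to GRCm38 with Hisat2, checked them with FastQC, tested with DESeq2 and deposited FPKM per gene. The submitters' processing notes name featureCounts 1.5.0-p3, StringTie 1.3.3b and the build mm9, but the coordinates of 99.68% of the 55394 identifiers in GENCODE vM21 were those of GRCm38, which is used here. Of the values above 0, 100% were whole multiples of 1 read (tolerance 0.01 read), and the implied library sizes are proportional to median-of-ratios size factors. Strand of counting is not given in the sources used here.

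Differences were tested with limma 3.58.1 (R 4.3.3, empirical Bayes with trend) on log2(FPKM + 1), for the 15143 genes whose mean FPKM reached 0.5, with Benjamini-Hochberg adjustment over all of them. Fold changes on this scale understate those of low genes. Groups and replicates came from the labels, and p-values measure the spread between mice. Over all genes, 89 were called higher and 46 lower. At an unadjusted p under 0.05, 1340 were higher and 1140 lower, against 789 and 1657 on the TPM scale, whose median log2 fold change was -0.048.

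Members and gene lists were chosen with earlier results of these data known. Genes named are all 10 members, Bmpr1a, up to 4 genes of each pathway list with the smallest unadjusted p under 0.05 (or the most abundant where fewer than 2 passed), Gm19610 and Nrg2 to Nrg4 to account for their lists (named after their values were seen), and defining markers. Some genes that this rule names are not reported here. Alternatives were a pseudocount of 0.1, no filter, a mean FPKM of at least 1, TPM, limma-voom, 2 blocks and each library left out. The procedure was tested on simulated data. Python 3.11.15, pandas 2.3.3, numpy 2.4.6, scipy 1.17.1 and matplotlib 3.10.9 were used.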

Additional observations from a re-analysis of the deposited data

How the results depend on the processing

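No member was called at an adjusted p under 0.05 in any of the 15 alternatives run. The number of members at an unadjusted p under 0.05 stayed between 2 and 4 (main value 3), and the direction of Erbb2, Btc, Hbegf, Areg, Nrg1, Erbb3 and Erbb4 was kept throughout. Egfr turned to -0.031 under TPM and ranged from -0.043 to 0.091 with a library left out, and Tgfa from -0.15 to 0.051. On the TPM scale 0 members had groups apart, against 2. The 16 other pathway genes at an unadjusted p under 0.05 ranged from 9 to 17 with a library left out. Over all genes, 135 were called, against 10 without a filter (where more genes share the adjustment), 252 with limma-voom, 50 with the replicate block and 442 with a block that sets replicates 1 and 2 apart from 3 and 4, and from 0 (without WT replicate 4) to 78 (without cKO replicate 1) with a library left out. The cause was not tested. Between groups, libraries with the same number had correlations of 0.0797 to 0.137 between their deviations from group means. Those with other numbers had 0.0873 to 0.178 within replicates 1 and 2 or within 3 and 4. Across these 2 sets the values ran from -0.21 to -0.072. The numbers were therefore not taken to pair mice, but libraries of a set deviated alike in both groups, which the main fit leaves out. The replicate block and the block by sets each left 3 members at an unadjusted p under 0.05 and 0 called. Depth limits Egf, with 15 to 65 reads per library, and to a lesser degree Btc and Erbb4.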
